A study of Mus musculus with 2 samples.

Results

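Receptors for GABA, glycine and glutamate carry most of the fast inhibition and excitation between neurons. A set of 39 subunit genes of these receptors, listed by symbol, was followed through single cells of the mouse preoptic area, and all 39 were found among the 31054 genes of the deposited matrices. By role they are 11 subunits of the GABA-A receptor, 2 of the GABA-B receptor, 4 of the glycine receptor, 4 AMPA, 6 NMDA and 5 kainate receptor subunits, 1 delta receptor subunit and 6 metabotropic glutamate receptors. The cells came from wild-type C57BL/6J mice aged 9 to 10 weeks, males and females pooled, and each group was a single library. In the SD+RS group 6 h of sleep deprivation was followed by 2 h of recovery sleep. In the SD group the tissue was taken after the 6 h of sleep deprivation, so both groups were sleep deprived and an undisturbed group was not analysed here. The study asked which preoptic neurons are active in rebound sleep, the deeper sleep that follows sleep loss. How many mice were pooled is not stated in the labels, so the differences below have no animal-to-animal spread beside them.

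GABA-A receptors are chloride channels built from 5 subunits, usually a pair each of alpha and beta subunits with a gamma subunit, and the alpha subunit sets much of the response to GABA and to benzodiazepines. Receptors with alpha and gamma subunits sit largely at synapses, and those with a delta subunit lie outside them. GABA-B receptors are coupled to G proteins and need both of their subunits. Glycine receptors are chloride channels of alpha subunits with the anchoring beta subunit. AMPA receptors carry the fast excitatory current, NMDA receptors pass calcium when transmitter and depolarization coincide, kainate receptors tune release and excitability, and metabotropic glutamate receptors act through G proteins. Most preoptic neurons release GABA and fewer release glutamate, and GABA neurons of this area include cells that promote sleep.

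Of the members, Gabra2, which encodes the alpha-2 subunit of the GABA-A receptor, differed most between the libraries in neurons taken as a whole, among those with more than 100 UMIs there, and it lies in a cluster of GABA-A genes on chromosome 5. In the GENCODE annotation of mm10, Gabrg1 (gamma-1) is at chr5:70751047-70842617 on the minus strand, Gabra2 at chr5:70957597-71095849 on the minus strand, Gabra4 (alpha-4) at chr5:71569749-71658308 on the minus strand and Gabrb1 (beta-1) at chr5:71658113-72149037 on the plus strand. The start regions of Gabra2, of Gabrg1, whose level followed that of Gabra2 most closely across neuron clusters, and of Gabra4, which did not share the difference of Gabra2, are shown so that neighbouring genes of different behaviour can be read side by side. Each is the 250 bases before the gene's start in the RefSeq annotation of GRCm38.p6, at chr5:71095850-71096099, chr5:70842618-70842867 and chr5:71658309-71658558, all on the minus strand and written 5′ to 3′ along it, with capitals marking CG dinucleotides.
Gabra2: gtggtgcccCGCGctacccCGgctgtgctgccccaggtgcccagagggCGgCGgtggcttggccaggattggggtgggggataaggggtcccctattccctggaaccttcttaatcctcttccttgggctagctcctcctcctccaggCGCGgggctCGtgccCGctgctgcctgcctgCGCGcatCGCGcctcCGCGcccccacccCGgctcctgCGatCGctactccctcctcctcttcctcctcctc
Gabrg1: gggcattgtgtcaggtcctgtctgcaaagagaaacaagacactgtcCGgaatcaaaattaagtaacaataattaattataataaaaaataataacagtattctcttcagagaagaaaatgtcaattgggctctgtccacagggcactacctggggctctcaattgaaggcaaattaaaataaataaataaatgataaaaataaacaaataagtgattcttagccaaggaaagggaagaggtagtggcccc
Gabra4: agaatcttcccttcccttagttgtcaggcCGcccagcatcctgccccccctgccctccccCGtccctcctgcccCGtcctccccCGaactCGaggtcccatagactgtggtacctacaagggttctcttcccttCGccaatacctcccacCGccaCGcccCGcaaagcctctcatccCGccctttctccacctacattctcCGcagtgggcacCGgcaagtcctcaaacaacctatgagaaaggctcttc
The Gabra2 window was 70% G and C with 18 CG dinucleotides and the Gabra4 window 61.2% with 12, against medians of 52.4% and 6 over 32851 promoters. The Gabrg1 window was 35.6% G and C with 1 CG, the lowest G and C content among 35 windows of the 28 members that the RefSeq table held, whose median was 62%. Neither strand of the 3 windows held the cyclic AMP response element TGACGTCA, found in 1.546% of all promoters, its core TGACG (17.77%), which lies within it, the AP-1 motif TGANTCA (6.749%) or the E-box CACGTG (6.021%). Over the 35 member windows there was no TGACGTCA, while 2 held TGACG, 1 the AP-1 motif and 1 the E-box, and these are matches of letters only.

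The SD+RS library held 8106 barcodes with a median of 14774 UMIs and the SD library 10262 with a median of 7534.5, and 23 barcode sequences occurred in both. After filtering, 7412 SD+RS and 9295 SD cells were kept, of which 4253 in SD+RS and 3727 in SD were neurons by their markers. Within neurons the depth was close, with medians of 21221 UMIs in SD+RS cells and 22094 in SD cells. Of the neurons, 3078 in SD+RS and 2699 in SD were in clusters with GABA markers, and 1164 in SD+RS and 1020 in SD in clusters with glutamate markers. The types were named from Slc32a1 and the glutamate markers, so the levels of these genes describe the naming and do not check it. Slc32a1, the vesicular GABA transporter, was at 194 and 193 UMIs per 1000000 (CPM) in GABA neurons and at 5.41 and 5.06 in glutamate neurons of SD+RS and SD. Slc17a6, a vesicular glutamate transporter, was at 4.17 and 4.64 in GABA neurons and at 312 and 318 in glutamate neurons. Gad1 was at 553 and 562 in GABA neurons and at 35.0 and 33.3 in glutamate neurons. Gad2 was at 935 and 912 in GABA neurons and still at 155 and 166 in glutamate neurons. Slc17a8 went the other way, at 2.17 and 1.97 in GABA neurons and 1.20 and 0.87 in glutamate neurons. Slc17a7 was at most 0.51. The mixture of sexes differed between the libraries. Among neurons with UMIs of either Xist or Y-linked genes but not both, 77.3% had Xist in SD+RS and 38.7% in SD.

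In neurons as a whole the receptor genes stood at nearly the same level in both libraries, and Gabra2 was the main exception. Levels are UMIs summed over cells and scaled to 1000000 UMIs of the same cells (CPM), and a log2 ratio is SD+RS over SD with the exact 95% interval of counting error. All 39 members passed the minimum of 50 UMIs in neurons of both libraries. The median log2 ratio of the members was −0.06, with quartiles of −0.14 and 0.01, and that of all 13765 genes with the same minimum was −0.02. The fold threshold was a level 25% or more higher, or 20% or more lower, in SD+RS than in SD (0.32 on the log2 scale). It was passed by 1 member higher in SD+RS, against 4.1% of all genes, and by 2 members lower in SD+RS, against 5.53% of all genes. The first was Gabrd and the others were Gabra2 and Grin2c, so the counts were about those of genes in general. An interval wholly above 0 was found for 5 members, against 22.5% of all genes, and wholly below 0 for 14 members, against 28.2%. Whether an interval clears 0 depends also on a gene's UMIs. Shares of intervals over all genes, here and below, are not matched for UMI count. Gabrd and Grin2c rest on under 100 UMIs a library, and both of their intervals held 0. The summed level of 8 oligodendrocyte markers in neurons was 78.7 CPM in SD+RS and 109 CPM in SD, with 6 of the 8 lower in SD+RS and none at 0, and its part in the ratios was not tested.

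Among the alpha subunits of the GABA-A receptor, Gabra2 had 12515 UMIs in SD+RS neurons and 15144 in SD neurons. Its level was 129 CPM (127 to 131) in SD+RS neurons and 172 (169 to 174) in SD neurons, so the counting intervals were far apart. The log2 ratio was −0.41 (−0.45 to −0.38), and 3.22% of all genes tested had a lower ratio. Over the 13 alternative ways of processing that can move a ratio it ranged from −0.53 to −0.24 and was past the fold threshold in 12 of them, and it was past a threshold of 1.5-fold in none. Gabra5, whose alpha-5 subunit forms receptors largely outside synapses, was at 68.4 in SD+RS and 77.3 in SD, a log2 ratio of −0.18 (−0.23 to −0.13). Gabra3 (alpha-3) was at 68.4 in SD+RS and 73.9 in SD, with a log2 ratio of −0.11. Gabra4, found in other brain regions mostly in receptors outside synapses, was at 40.6 in SD+RS and 37.6 in SD, with a log2 ratio of 0.11 (0.05 to 0.18). In neurons taken as a whole the alpha subunits therefore did not share a direction. The log2 ratio of Gabra4 was 0.25 (0.14 to 0.35) in neurons with Xist and no Y-linked UMIs. In those with Y-linked and no Xist UMIs it was −0.02 (−0.14 to 0.10), so its higher level was seen only in the former. The part of the sex mixture in this was not tested.

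The beta and gamma subunits, which complete the channel, differed little between the libraries in neurons taken as a whole. Gabrb1 was at 319 CPM in SD+RS neurons and 309.9 in SD neurons, a log2 ratio of 0.04, and Gabrb2 (beta-2) at 10.4 in SD+RS and 9.58 in SD, a log2 ratio of 0.12 (−0.02 to 0.25). Gabrg1 stood at 77.7 in SD+RS and 78.2 in SD, and Gabrg3 (gamma-3) at 54.2 in SD+RS and 51.2 in SD. Gabre (epsilon) and Gabrq (theta), subunits known to be enriched in the hypothalamus and brainstem, were at 19.7 and 74.0 in SD+RS and at 19.2 and 73.9 in SD. The values of Gabrg1 and Gabrq pool opposite log2 ratios. In neurons with Xist and no Y-linked UMIs, Gabrg1 had 0.24 (0.16 to 0.31) and Gabrq −0.18 (−0.25 to −0.11). In neurons with Y-linked and no Xist UMIs, Gabrg1 had −0.28 (−0.37 to −0.19) and Gabrq 0.16 (0.08 to 0.25). Gabrd (delta) had only 86 UMIs in SD+RS neurons and 57 in SD neurons, a log2 ratio of 0.46 (−0.04 to 0.96). Summed over the 11 subunits, GABA-A transcripts were at 862 CPM in SD+RS neurons and 903 in SD neurons. The sum differed by −0.07 on the log2 scale, while the median of the single members was 0.03.

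The lower level of Gabra2 was spread over the neuron clusters. Neurons fell into 44 clusters, of which 32 had at least 50 cells in each library, 22 of GABA and 10 of glutamate neurons. In all 32 the Gabra2 level was lower in SD+RS than in SD, which 0.671% of the 5666 genes with at least 20 UMIs in every cluster also showed. The difference was past the fold threshold in 24 clusters, and 1.04% of the same genes were that much lower in at least 16 of the clusters. The interval lay below 0 in 26 clusters. The median log2 ratio over clusters was −0.43. The GABA cluster led by Pou3f1, Adarb2 and Shh had the lowest ratio, −1.03, with 31.0 CPM of Gabra2 in SD+RS and 63.3 in SD, from 42 UMIs in SD+RS and 73 in SD. That led by Sostdc1, Amigo2 and Asb4 had the ratio nearest to 0, −0.05, with 102 in SD+RS and 105.5 in SD. Among glutamate clusters, that led by Otp, Gpr50 and Ucn3 had a ratio of −0.84, with 142 in SD+RS and 255 in SD. Clusters with a high level in SD differed as well: Gabra2 was at 230.4 in SD+RS and 338 in SD in the GABA cluster led by Nrgn, Sp9 and Rprml, and at 231 in SD+RS and 333 in SD in that led by Vip, Ntng1 and Penk. The clusters of a library share its preparation, so they are not repeats of the comparison. Gabra2 was followed here because of its low ratio in all neurons, most of which are in these clusters. Its agreement over clusters therefore follows in part from that choice, and the shares above are of genes not so chosen.

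**Figure D1:**
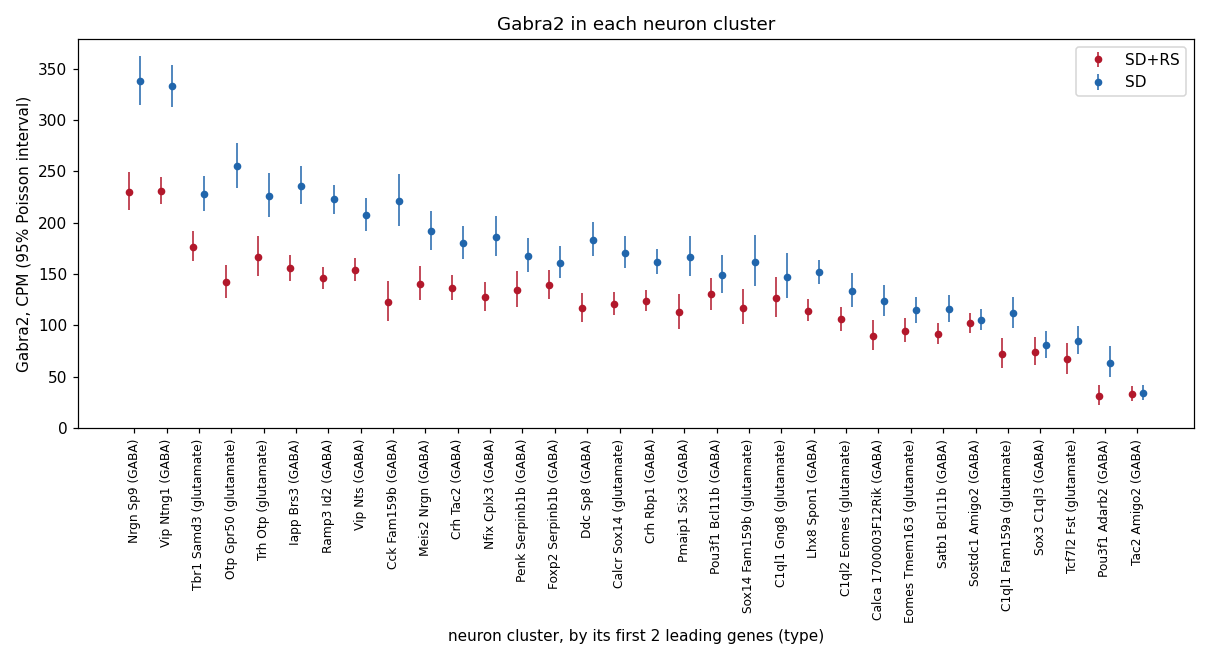
Gabra2 in CPM (vertical axis) in each of the 32 neuron clusters, SD+RS in red and SD in blue, with bars for the exact 95% Poisson interval and clusters ordered by the mean of both libraries and labelled by their first 2 leading genes. The SD+RS point lies below the SD point in every cluster, and the cluster led by Tac2, Amigo2 and Gpr139, at 33.0 in SD+RS and 34.1 in SD, is last in this order.

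The size of the Gabra2 difference was not the same in cells of either sex. In neurons with Xist and no Y-linked UMIs, Gabra2 was at 129.9 CPM in 3136 SD+RS cells and 153.9 in 1300 SD cells, a log2 ratio of −0.24 (−0.30 to −0.19). In neurons with Y-linked and no Xist UMIs it was at 124 in 922 SD+RS cells and 179 in 2060 SD cells, a log2 ratio of −0.53 (−0.59 to −0.47). The level was thus lower in SD+RS in both kinds of cell, past the fold threshold only in those with Y-linked UMIs, and the intervals of the 2 ratios did not overlap. Gria3, an X-linked gene, had a log2 ratio of 0.01 in Xist cells (76.1 in SD+RS, 75.7 in SD) and −0.46 in Y-linked cells (72.6 in SD+RS, 99.9 in SD). Gabbr2 had ratios of 0.04 in Xist cells and −0.34 in Y-linked cells, Grin3a −0.02 and −0.33, Gria2 −0.02 and −0.25, and Grm5 0.03 and −0.24. Gabra5, −0.18 in all neurons, had ratios of −0.02 in Xist cells (63.7 in SD+RS, 64.5 in SD) and 0.00 in Y-linked cells (84.6 in SD+RS, 84.8 in SD). These pooled values hold opposite ones: in Y-linked cells Gabra5 had a ratio of −0.14 (−0.24 to −0.04) in GABA neurons and of 0.34 (0.20 to 0.48) in glutamate neurons, at 90.2 in SD+RS and 71.3 in SD. Males and females cannot be set against each other by mouse here, and the part of the sex mixture in the other ratios was not tested.

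The 2 GABA-B subunits are abundant in neurons, and neither reached the fold threshold. Gabbr1, which binds GABA, was at 532 CPM in SD+RS and 537 in SD, a log2 ratio of −0.01. Gabbr2, which couples the receptor to its G protein, was at 73.9 in SD+RS and 79.7 in SD, a log2 ratio of −0.11 (−0.16 to −0.06). Of the glycine receptor genes, Glra3 (alpha-3) was at 36.1 in SD+RS and 42.0 in SD, a log2 ratio of −0.22 (−0.28 to −0.15), and Glrb, the beta subunit that ties the receptor to the scaffold, at 130.1 in SD+RS and 145 in SD, a log2 ratio of −0.16 (−0.19 to −0.12). Glra1 (alpha-1) was at 6.43 in SD+RS and 6.67 in SD, and Glra2 (alpha-2), the form best known from the developing brain, at 48.7 in both libraries. Glrb was lower in SD+RS in 27 of the 32 neuron clusters and Glra3 in 25 of the 30 in which it had at least 20 UMIs per library. In 9 clusters each, the interval lay below 0. The share of all genes with such cluster counts was not taken, and clusters of a library are not repeats of the comparison.

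AMPA receptor transcripts had, as a sum, 816 CPM in SD+RS neurons and 872 in SD neurons, a log2 ratio of −0.10 (−0.11 to −0.08). Of its 4 subunits, 3 had intervals below 0, against 28.2% of all genes, a share not matched for UMI count. In Xist cells none of the 4 did, with ratios of −0.02 for Gria2, 0.01 for Gria3, −0.07 (−0.15 to 0.01) for Gria4 and 0.03 for Gria1. Gria2, which makes the channel impermeable to calcium, was at 459 in SD+RS and 498 in SD, a log2 ratio of −0.12 (−0.14 to −0.10), and it was lower in SD+RS in 26 of 32 clusters. Gria3 was at 76.1 in SD+RS and 89.9 in SD, a log2 ratio of −0.24 (−0.29 to −0.20), and lower in 26 of 31 clusters. For these cluster counts, too, the share of all genes was not taken. Gria4 had 53.2 in SD+RS and 58.5 in SD, a log2 ratio of −0.14. Gria1, the subunit added to synapses in several forms of potentiation, was at 227 in SD+RS and 226 in SD, a log2 ratio of 0.01 (−0.02 to 0.04).

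NMDA receptors were close in the libraries, with summed levels of 429.7 in SD+RS neurons and 436 in SD neurons. The obligatory subunit Grin1 was at 168 in SD+RS and 171 in SD, and Grin2b at 138 in SD+RS and 134 in SD, with a log2 ratio of 0.05. Grin2a, which replaces Grin2b at many synapses as they mature, had 35.5 in SD+RS and 39.2 in SD, a log2 ratio of −0.14 (−0.21 to −0.08). Grin2d was at 24.8 in SD+RS and 25.8 in SD, and Grin3a, whose subunit lowers calcium entry, at 62.5 in SD+RS and 66.5 in SD. Grin2c had 54 UMIs in SD+RS neurons and 64 in SD neurons, with a log2 ratio of −0.38 (−0.93 to 0.16).

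Kainate and metabotropic receptor genes likewise stayed within the fold threshold in neurons as a whole. The kainate subunits summed to 204 CPM in SD+RS and 206 in SD. The largest difference among them was in Grik3, at 26.2 in SD+RS and 29.5 in SD, a log2 ratio of −0.17 (−0.25 to −0.09). Grik1 (51.5 in SD+RS, 52.7 in SD), Grik2 (48.7 in both), Grik4 (13.5 in SD+RS, 14.0 in SD) and Grik5 (63.6 in SD+RS, 61.3 in SD) had log2 ratios between −0.06 and 0.05. Grid1, a delta receptor that links to presynaptic partners, was at 32.1 in SD+RS and 31.3 in SD. Of the metabotropic receptors, Grm5, which signals through phospholipase C, was at 133 in SD+RS and 139.9 in SD, a log2 ratio of −0.08. Grm2, Grm3 and Grm4, which inhibit adenylyl cyclase, were at 2.93, 3.01 and 7.23 in SD+RS and at 3.36, 3.28 and 8.36 in SD. Grm7 and Grm8, of the same inhibitory kind, were at 37.7 and 11.7 in SD+RS and at 39.3 and 11.6 in SD.

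The neuron types were then taken apart, and 37 members passed the minimum in each, Gabrd and Grin2c being below it. In GABA neurons no member was higher in SD+RS past the fold threshold, against 4.13% of all genes, and 1 was lower, against 5.51%. That member was Gabra2, at 133 in SD+RS GABA neurons and 175.5 in SD GABA neurons, a log2 ratio of −0.40 (−0.44 to −0.36). Next in order were Gabra5, at 69.7 in SD+RS and 83.7 in SD (−0.26), Grm4 (−0.25), Gria3 (−0.24) and Grin2a (−0.16). The highest were Grm2 (0.23, interval −0.13 to 0.59), Gabrb2 (0.16), Gabra4 (0.15), Grm8 (0.10) and Gabrg3 (0.09). Intervals lay above 0 for 5 members, against 21.3% of all genes, and below 0 for 14, against 25.8%.

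In glutamate neurons no member was higher in SD+RS past the fold threshold, against 3.25% of all genes, and 4 were lower, against 5.4%. Grm2 had 4.67 CPM in SD+RS glutamate neurons and 7.04 in SD glutamate neurons, from 132 UMIs in SD+RS and 178 in SD, a log2 ratio of −0.59 (−0.93 to −0.26). Glra3 was at 29.6 in SD+RS and 41.1 in SD, a log2 ratio of −0.47 (−0.61 to −0.34), and Gabra2 at 120.1 in SD+RS and 163 in SD, a log2 ratio of −0.44 (−0.51 to −0.38). Grik3, which was low in this type, had 132 UMIs in SD+RS glutamate neurons and 153 in SD, a log2 ratio of −0.37 (−0.72 to −0.03). The fifth lowest was Grm8 (−0.21), and the highest were Gabre (0.28, interval 0.09 to 0.48), Grik5 (0.13), Gabra5 (0.09), Gabrg3 (0.07) and Grid1 (0.04). Intervals lay above 0 for 2 members, against 14.4% of all genes, and below 0 for 15, against 18.7%, shares not matched for UMI count.

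**Figure D2:**
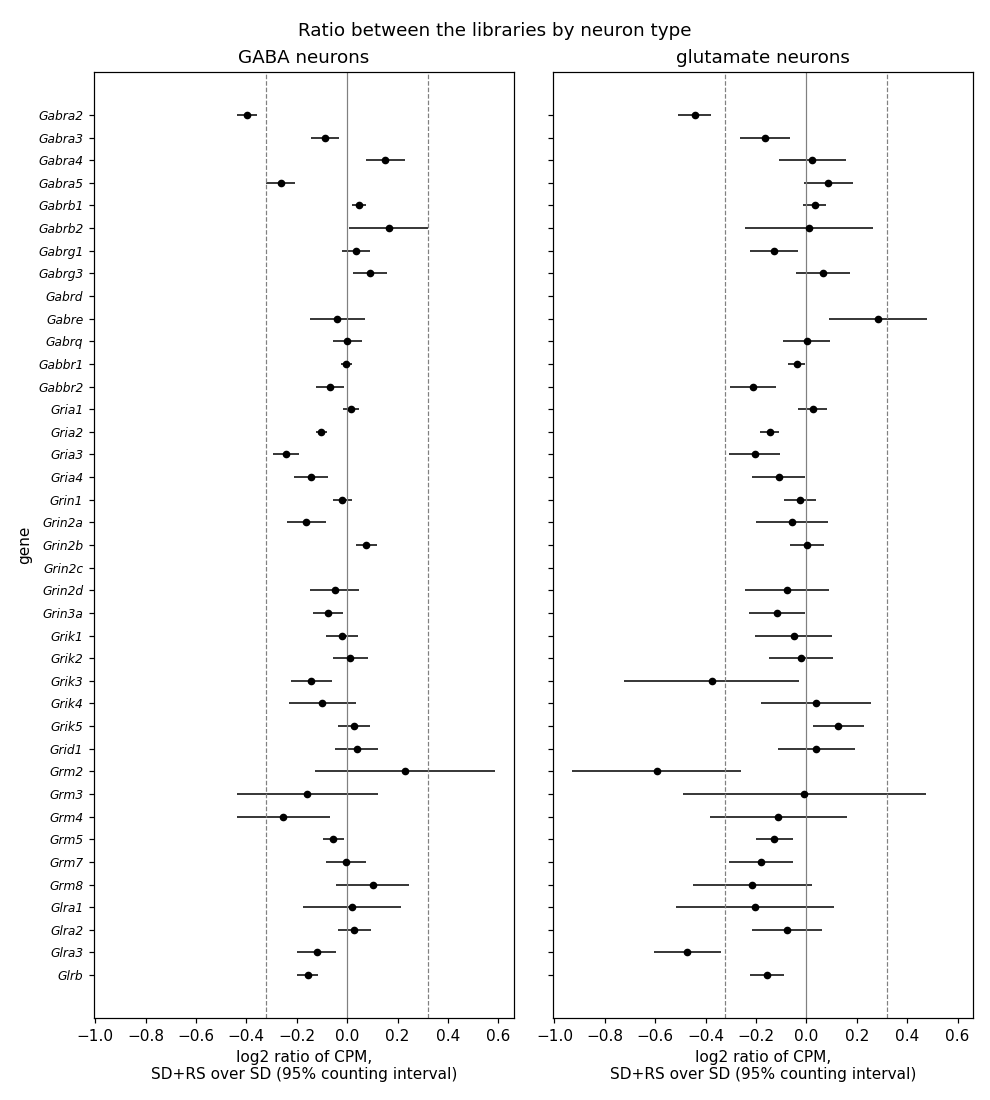
Log2 ratio of CPM, SD+RS over SD (horizontal axis), of each member in GABA neurons (left) and glutamate neurons (right), with bars for the exact 95% counting interval, dashed lines at the fold threshold, and Gabrd and Grin2c left out for under 50 UMIs. Gabra2 lies left of the dashed line in both types, at −0.40 and −0.44, while Glra3, Grm2 and Grik3 do so only in glutamate neurons.

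The ratios of the neuron types were subtracted, GABA minus glutamate neurons, with an interval of counting error. For Gabra2 the difference was 0.04 (−0.03 to 0.12), so a difference of more than 0.12 between the types was outside its interval. For Glra3 it was 0.35 (0.20 to 0.50), and for Grm2 0.82 (0.35 to 1.30), and in glutamate neurons both were lower in SD+RS. Gabra5 went the other way, with a difference of −0.35 (−0.46 to −0.24), and so did Gabre with −0.32 (−0.54 to −0.10). Smaller differences whose intervals did not hold 0 were found for Grm8 (0.32), Grm7 (0.18), Gabrg1 (0.16) and Gabbr2 (0.14). These gaps were not alike in cells of either sex. In Y-linked cells the ratios in GABA and glutamate neurons were −0.05 and −0.01 for Grm8, −0.03 and 0.04 for Grm7, −0.24 and −0.31 for Gabrg1, and, from 15 to 87 UMIs, −0.58 and −0.56 for Grm2. For Gabra5 they were −0.08 in GABA and 0.16 in glutamate neurons of Xist cells, against the −0.14 and 0.34 of Y-linked cells, and for Glra3 0.07 and −0.46 in Xist cells and −0.08 and −0.32 in Y-linked cells. Gabre had −0.25 and 0.27 in Xist cells and −0.01 and 0.24 in Y-linked cells. For Grik3 the interval of the difference, −0.11 to 0.58, held 0.

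Over the 13 alternatives that can move a ratio, the log2 ratio of Gabra2 stayed between −0.52 and −0.22 in GABA neurons and between −0.54 and −0.28 in glutamate neurons. In glutamate neurons the ratio of Grm2 stayed between −0.73 and −0.53 and that of Glra3 between −0.56 and −0.32, and Grik3 between −0.51 and −0.14, past the fold threshold in 10 of them. Grm8 ranged from −0.43 to −0.01, and the highest members there were less even: Gabre from 0.05 to 0.44, Gabra5 from −0.06 to 0.34, Grid1 from −0.16 to 0.17, Grik5 from 0.04 to 0.22 and Gabrg3 from −0.03 to 0.13. In GABA neurons Gabra5 ranged from −0.27 to −0.08, Grm4 from −0.41 to −0.15, Gria3 from −0.39 to 0.01 and Grin2a from −0.20 to −0.01. The highest ones there were Grm2 from −0.58 to 0.38, Gabrb2 from 0.02 to 0.20, Gabra4 from 0.03 to 0.28, Grm8 from −0.05 to 0.14 and Gabrg3 from 0.06 to 0.12. In all neurons, Gria3 ranged from −0.46 to 0.01, Glra3 from −0.30 to −0.07, Grm4 from −0.36 to 0.01 and Grin2c from −0.82 to 0.20. At the other end Gabrd ranged from −0.42 to 0.78, Gabrb2 from 0.02 to 0.18, Gabra4 from −0.02 to 0.25, Gabrg3 from 0.05 to 0.10 and Grik5 from −0.10 to 0.09.

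GABA and glutamate neurons of the same library differed in a few receptor genes, kainate receptors among them. At 2-fold or more in both libraries, 3 members were higher in GABA neurons, against 1.53% of all genes, and 1 was higher in glutamate neurons, against 1.76%. With 50 UMIs required in each type, a rule added after the values were seen, 37 members remained, of which 2 were higher in GABA neurons (0.682% of all genes) and 1 in glutamate neurons (1.09%). Grik3 was at 35.5 CPM in GABA neurons and 4.67 in glutamate neurons of SD+RS, 7.60-fold higher, and at 39.1 and 6.05 in SD, 6.47-fold higher. Grik1 was at 62.7 in GABA neurons and 25.9 in glutamate neurons of SD+RS (2.43-fold), and at 63.6 and 26.8 in SD (2.38-fold). Gabrd, with 4.05-fold in SD+RS and 2.16-fold in SD, rests on 8 UMIs in SD+RS and 9 in SD glutamate neurons and was counted only through its level in GABA neurons. Grm2, known as a receptor of glutamate terminals, was higher in glutamate neurons, with 2.23 in GABA and 4.67 in glutamate neurons of SD+RS and 1.90 and 7.04 in SD. At 1.5-fold, 5 members were higher in GABA neurons, against 2.93% of all genes, Gria3 and Glra2 being added, and Grm2 alone was higher in glutamate neurons, against 3.53%. Intervals lay above 0 in both libraries for 24 members, against 16.8% of all genes, and below 0 in both for 1, against 10.4%. These shares are not matched for UMI count. The median log2 ratio of the members was 0.20 in SD+RS and 0.17 in SD, and that of all genes 0.03 in both.

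**Figure D3:**
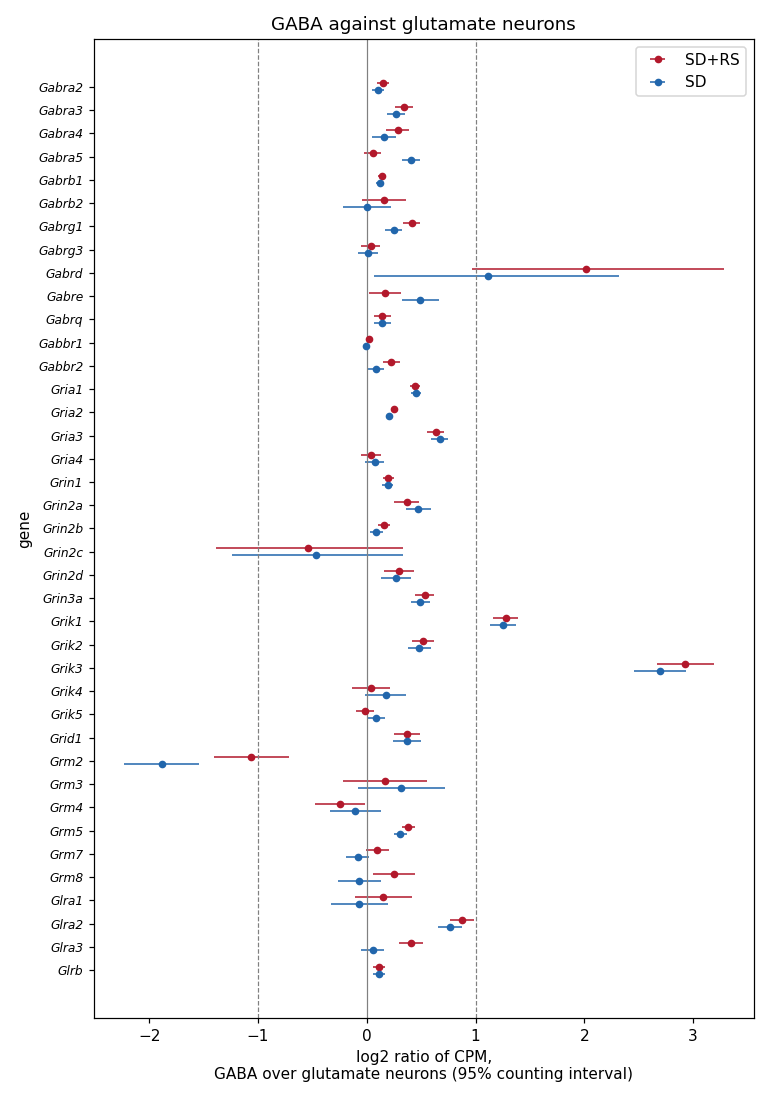
Log2 ratio of CPM, GABA over glutamate neurons (horizontal axis), of the 39 members in SD+RS (red) and SD (blue), with bars for the exact 95% counting interval and dashed lines at 2-fold. Grik3 and Grik1 lie right of the upper line and Grm2 left of the lower line in both libraries, and Glra3 and Gabra5 are at different places in the 2 libraries.

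Across the 32 neuron clusters the receptor genes peaked in different clusters. That led by Iapp, Brs3 and Calcr, a GABA cluster, had the highest level of 6 members in both libraries, which was so for 0.879% of all genes. They were Gabra3 (101 in SD+RS, 123 in SD), Gabrb1 (582 in SD+RS, 649.8 in SD), Gabrg3 (101 in SD+RS, 107 in SD), Gabre (79.6 in SD+RS, 92.7 in SD), Gabrq (199.996 in SD+RS, 230.1 in SD) and Glra1 (33.5 in SD+RS, 41.7 in SD). For Gabre, Gabrq and Gabrb1 the medians over clusters were 14.4, 54.2 and 276 in SD+RS and 13.5, 58.3 and 279.7 in SD. Gabra3, Gabre and Gabrq are neighbours on the X chromosome, and this cluster thus held a set of alpha-3, beta-1, gamma-3, epsilon and theta transcripts.

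Another GABA cluster, led by Tac2, Amigo2 and Gpr139, which was picked by the listed markers Gal, Tac2, Cartpt, Amigo2 and Cbln2, stood apart in another way. Gal, Tac2 and Cartpt were found in other clusters too, and that led by Gal, Ctxn3 and Mgp had more Gal. The cluster led by Tac2, Amigo2 and Gpr139 had 77 SD+RS and 94 SD cells. Its level of Gabbr1 (698 in SD+RS, 704 in SD) was the highest of the clusters in both libraries, and by the mean of the libraries so were those of Gria1 (538 in SD+RS, 488 in SD) and Grin1 (196 in SD+RS, 230.4 in SD). It had the lowest levels in both libraries of Gabrg1 (10.2 in SD+RS, 12.1 in SD), Gabrq (9.38 in SD+RS, 8.89 in SD), Gria2 (265 in SD+RS, 338 in SD) and Grin2b (77.1 in SD+RS, 72.9 in SD). By the mean of the libraries it was also lowest in Gabra2 (33.0 in SD+RS, 34.1 in SD) and Gria3 (8.56 in SD+RS, 18.5 in SD). No UMI of Grm3 or Grin2c was found there in either library. Between the libraries, Gria2 differed there by −0.35 on the log2 scale (−0.50 to −0.21), Gria3 by −1.11 (−1.92 to −0.35, from 21 UMIs in SD+RS and 52 in SD), Grik2 by −0.60 (−0.93 to −0.28) and Grin1 by −0.24 (−0.41 to −0.06). Gria1 differed by 0.14 (0.03 to 0.25) and Gabra2 by −0.05 (−0.49 to 0.39).

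Other clusters stood out in members of several families. The GABA cluster led by Pou3f1, Adarb2 and Shh, with Lhx6 among its next leading genes, had in both libraries the highest Grin2a (143 in SD+RS, 146 in SD, against medians of 35.7 in SD+RS and 38.1 in SD) and Grid1 (63.4 in SD+RS, 58.1 in SD). By the mean of the libraries, but not in each, it was also highest in Gabbr2 (167 in SD+RS, 130.0 in SD), Grik2 (91.4 in SD+RS, 101 in SD) and Glrb (203 in SD+RS, 200.1 in SD). In both libraries it had the lowest Gabrb1 (58.2 in SD+RS, 76.3 in SD) and Gabra4, and few or no UMIs of Gabrd, Gabre and Grm8. Cells of the GABA cluster led by Cck, Fam159b and Ppp1r17 had in both libraries the highest Grik1 (237 in SD+RS, 207 in SD, against medians of 43.3 in SD+RS and 48.2 in SD) and Grin3a (166 in SD+RS, 143 in SD). The GABA cluster led by Meis2, Nrgn and Rprml had in both the highest Glra2 (114 in SD+RS, 117 in SD), and by the mean of the libraries, but not in each, it led in Gria2 (699 in SD+RS, 749 in SD), Grin2b (215 in SD+RS, 202 in SD) and Gabra4 (72.4 in SD+RS, 59.2 in SD). That led by Vip, Ntng1 and Penk had in both the highest Glra3 (96.6 in SD+RS, 92.3 in SD). Of the glutamate clusters, that led by Tbr1, Samd3 and Nrn1 was highest in Grm2 by the mean (7.37 in SD+RS, 14.7 in SD), and so was that led by Sox14, Fam159b and Npffr1 in Grm5 (236.5 in SD+RS, 257 in SD), in each case not in both libraries. The cluster led by C1ql1, Fam159a and Sncg had almost no Grm5, with 4.86 in SD+RS and 12.4 in SD.

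**Figure D4:**
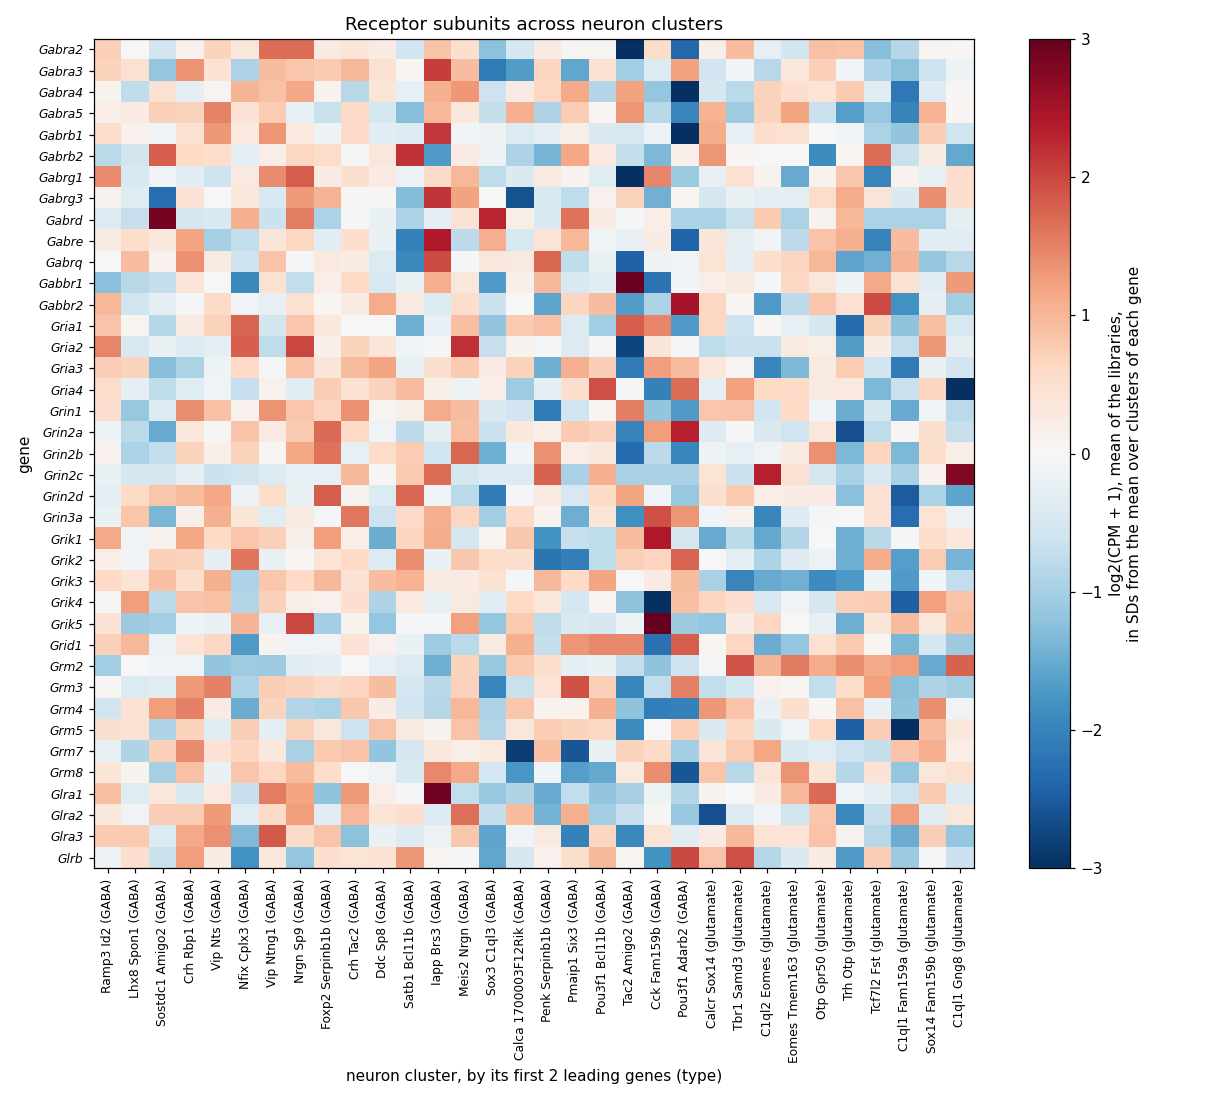
Level of each member (rows) in each of the 32 neuron clusters (columns, GABA then glutamate, labelled by their first 2 leading genes), as log2(CPM + 1) averaged over both libraries and scaled to SDs from the gene's mean over clusters, red high and blue low. The cluster led by Iapp, Brs3 and Calcr is red for Gabra3, Gabrb1, Gabrg3, Gabre, Gabrq and Glra1, and that led by Tac2, Amigo2 and Gpr139 is blue for Gabra2, Gabrg1, Gria2 and Gria3 and red for Gabbr1.

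Members with like profiles over the 32 clusters were ranked by Spearman's rho of the mean level, over all 741 pairs, whose median was 0.08. The closest were Gabra2 and Gabrg1, neighbours on chromosome 5, with rho of 0.77 (0.70 in SD+RS alone, 0.78 in SD alone). Next were Grin2b with Grm5 (0.66), Gabrb1 with Glra1 (0.65), Gabra5 with Gabrb1 (0.62) and Gria2 with Grm5 (0.61). The most opposed were Grid1 with Grm8 (−0.59), Grik1 with Grm2 (−0.58) and Gabbr2 with Grm7 (−0.55). Clusters of a library share its depth and preparation, so these values describe the profiles only. Although Gabrg1 followed Gabra2 over clusters, its own log2 ratio between the libraries was negative in only 19 of 32 clusters, against 32 of 32 for Gabra2.

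In every glial class at most 10 of the 39 members were above their neuronal level in both libraries. In astrocytes, 1274 in SD+RS and 2095 in SD, 7 members were higher than in neurons in both libraries, against 41.2% of all genes. Grin2c had 139.9 CPM in SD+RS astrocytes and 157 in SD astrocytes, against 0.56 in SD+RS and 0.72 in SD neurons, a 252-fold excess in SD+RS and a 216-fold excess in SD. Grm3, the metabotropic receptor of adult astrocytes, was at 32.6 in SD+RS and 32.5 in SD, against 3.01 in SD+RS and 3.28 in SD neurons. Gabrg1 (272 in SD+RS, 271 in SD), Gabrb1 (618 in SD+RS, 521 in SD) and Gabbr2 (296 in SD+RS, 290.3 in SD) were 1.68- to 4.01-fold above neurons, and Gria1 (359 in SD+RS, 352 in SD) and Gria2 (1084 in SD+RS, 1026 in SD) 1.56- to 2.36-fold above them. As a yardstick of neuronal RNA outside neurons, the 9 neuron markers had in astrocytes a median of 0.030 of their neuronal level in SD+RS and 0.072 in SD, and at most 0.047 in SD+RS and 0.102 in SD. Alpha subunits were below their neuronal level, to different degrees. Gabra2 was at 28.7 in SD+RS and 30.5 in SD, 0.22 and 0.18 of its neuronal level. Gabra4 was at 25.4 in SD+RS and 26.6 in SD, 0.62 and 0.71 of its neuronal level. Neither Gabra3 nor Gabra5 reached 50 UMIs in both libraries.

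Oligodendrocyte precursors, 175 in SD+RS and 264 in SD, had the longest list, 10 members above neurons in both libraries, against 47.8% of all genes. Grin3a (227 in SD+RS, 215 in SD), Gria3 (262 in SD+RS, 227 in SD), Gria4 (156 in SD+RS, 169 in SD) and Grid1 (89.1 in SD+RS, 68.4 in SD) were 2.18- to 3.64-fold above neurons. Gria2 (837 in SD+RS, 889 in SD), Grik4 (38.4 in SD+RS, 27.5 in SD), Grik3 (46.6 in SD+RS, 62.6 in SD), Grik5 (107 in SD+RS, 90.9 in SD) and Grm5 (175 in SD+RS, 181 in SD) were also above neurons with intervals that did not hold 0. Grin2d was above them by less than its counting error. Neuron markers reached a median of 0.160 of their neuronal level in SD+RS precursors and 0.144 in SD precursors, and Elavl4, the highest, 0.573 in SD+RS and 0.646 in SD. In oligodendrocytes, 863 in SD+RS and 1419 in SD, 3 members were above neurons, against 28.7% of all genes. These were Grm3 (56.1 in SD+RS, 57.1 in SD), 18.7-fold above neurons in SD+RS and 17.4-fold in SD, Glrb (153 in SD+RS, 166 in SD) and Grin2c, with only 9 UMIs in SD+RS and 17 in SD. Microglia had no member above neurons in both libraries (26% of all genes were), endothelial cells had Glra1 (33.2%), from 10 UMIs in SD+RS and 17 in SD, and mural cells had Grm3 and Grm7 (28.5%). Glra1 was above neurons by less than its counting error. In mural cells Grm3 was at 28.8 in SD+RS and 34.2 in SD, from 12 and 24 UMIs. Grm7 was there at 38.4 in SD+RS and 61.3 in SD, against 37.7 and 39.3 in neurons, and its SD+RS interval held 0.

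**Figure D5:**
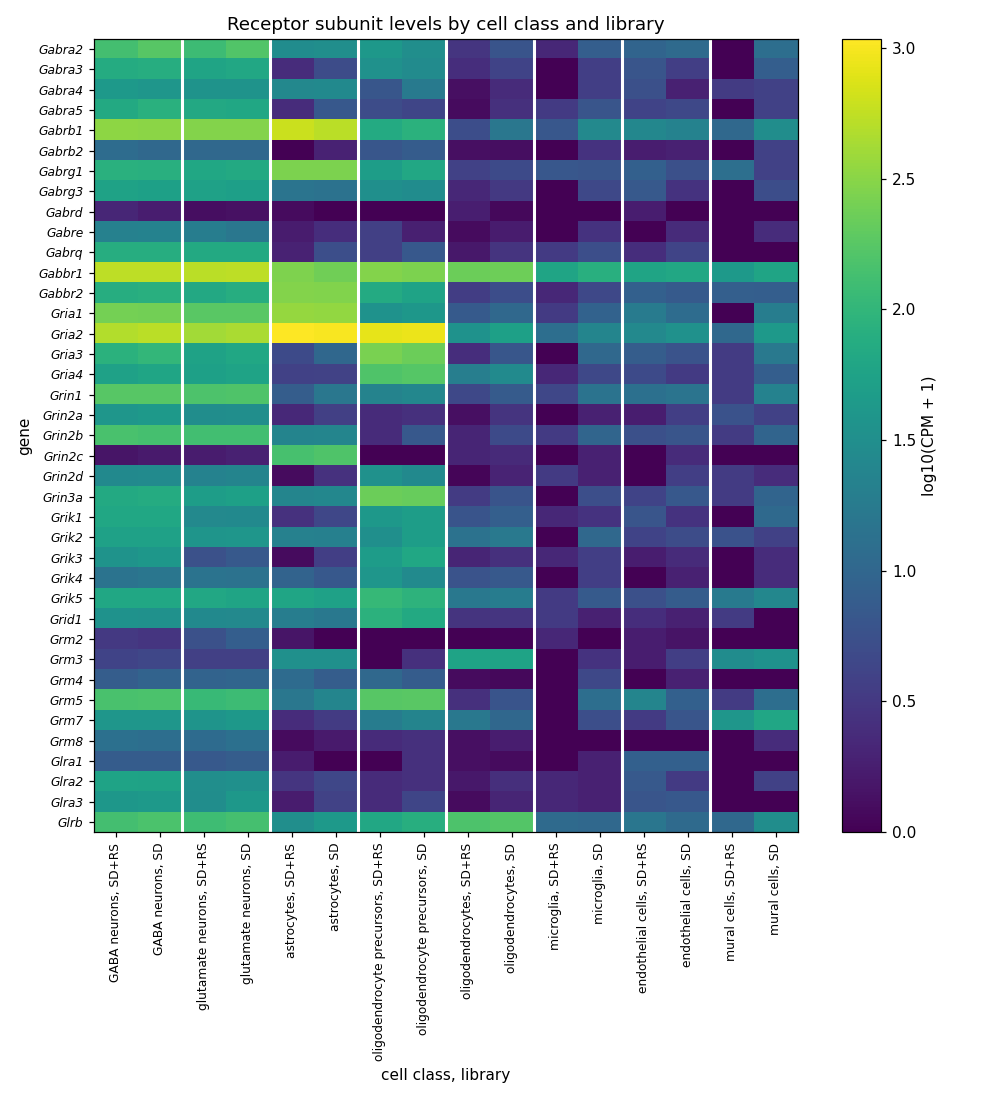
Level of each member (rows) in GABA neurons, glutamate neurons and 6 other cell classes, SD+RS left of SD in each (columns), as log10(CPM + 1) on the colour scale. Grin2c is bright only in astrocytes, Grm3 in astrocytes, oligodendrocytes and mural cells, and Grin3a and Gria3 in oligodendrocyte precursors.

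Between the libraries, astrocytes had 18 members above the minimum, none past the fold threshold and higher in SD+RS (11.2% of all genes) and 2 lower (12.2%). The lower ones were Grm5 (14.98 in SD+RS, 23.0 in SD, log2 ratio −0.62, −1.06 to −0.20) and Glrb (30.9 in SD+RS, 43.2 in SD, log2 ratio −0.48). Neuron markers in astrocytes were lower in SD+RS as well, with a median of 0.030 of their neuronal level in SD+RS and 0.072 in SD. Grm5 was at 0.113 of its neuronal level in SD+RS and 0.165 in SD, and Glrb at 0.238 in SD+RS and 0.298 in SD. The part of neuronal RNA in these 2 ratios was not tested. Gabrb1 had a log2 ratio of 0.25 (0.17 to 0.32), Gabbr1 0.23, Grin2c −0.16 (−0.31 to −0.02) and Gabra2 −0.09 (−0.42 to 0.24). Astrocyte clusters split by library: the cluster led by Utp14b, Etnppl and F3 held 98 SD+RS and 1734 SD cells, and that led by Gm3764, Itih3 and Slc7a10 held 1146 SD+RS and 239 SD cells. Gabrb1 was higher in SD+RS within both, at 684 in SD+RS and 527 in SD in the cluster with Utp14b and at 622 in SD+RS and 535 in SD in the other. Grin2c did not keep its direction, with 188 in SD+RS and 161 in SD in the cluster with Utp14b and 138 in SD+RS and 171 in SD in the other. Oligodendrocytes had 9 members above the minimum, 1 of them higher in SD+RS (10.6% of all genes) and 3 lower (12.2%). Grm7 was higher (15.4 in SD+RS, 9.45 in SD), and Gria1 (6.20 in SD+RS, 9.75 in SD), Gria2 (34.4 in SD+RS, 52.2 in SD) and Gria4 (19.1 in SD+RS, 27.4 in SD) were lower. Neuron markers in oligodendrocytes had the same order, with a median over 9 markers of 0.019 of their neuronal level in SD+RS and 0.033 in SD and a highest value of 0.207 in SD+RS and 0.242 in SD, both for Tubb3, while Gria1 was at 0.027 of its neuronal level in SD+RS and 0.043 in SD. Their part in these ratios was not tested. In oligodendrocyte precursors 2 of 10 members were higher (13.9% of all genes), Gabbr2 and Grid1, both with intervals that held 0, and none was lower (7.41%). The share of Xist cells was also higher in SD+RS in glia, 80.5% in SD+RS and 58.8% in SD for astrocytes, and its part in these ratios was not tested.

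Genes that make, move and anchor the transmitters and receptors were read from 4 lists in neurons. Of 17 genes of GABA and glutamate synthesis and transport, 15 passed the minimum. Past the fold threshold none was higher in SD+RS, against 4.1% of all genes, and 2 were lower, against 5.53%. Gad1 and Gad2, which make GABA, were at 399 and 703 in SD+RS and at 408 and 695 in SD. The lower genes were Glul, the glutamine synthetase of astrocytes (29.3 in SD+RS, 38.5 in SD), and the astrocyte transporter Slc1a3 (1.41 in SD+RS, 2.74 in SD). The summed level of 9 astrocyte markers in neurons, which include Slc1a3, was 281 in SD+RS and 278 in SD, with 6 of the 9 lower in SD+RS, and its part in these values was not tested. Of 18 genes of the inhibitory scaffold, 17 passed the minimum and none differed past the fold threshold; Gphn, which holds GABA-A and glycine receptors in place, was at 50.5 in SD+RS and 47.2 in SD. The list had a median log2 ratio of 0.00, with 4 intervals above 0, against 22.5% of all genes, and 5 below, against 28.2%.

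Of 18 genes of the excitatory postsynaptic scaffold, 17 passed the minimum, and past the fold threshold 2 were lower in SD+RS and none higher. Their median log2 ratio was −0.15, against −0.02 over all genes, and 12 of the 17 intervals lay below 0 and 1 above. Of all genes, 5.53% were lower and 4.1% higher past the threshold, and 28.2% had intervals below 0 and 22.5% above. The shares of intervals are not matched for UMI count. Shank3 was at 5.62 in SD+RS and 7.53 in SD, a log2 ratio of −0.42 (−0.59 to −0.26). Homer1, one of whose transcripts is induced by activity, was at 24.9 in SD+RS and 31.4 in SD, a log2 ratio of −0.33 (−0.41 to −0.25). Dlg4, the scaffold known as PSD-95, was at 103 in SD+RS and 120.1 in SD, and Camk2a at 59.0 in SD+RS and 70.0 in SD. None of 20 auxiliary genes of AMPA and kainate receptors differed past the fold threshold, and their median log2 ratio was −0.04. Cacng8 (8.01 in SD+RS, 6.55 in SD) had the highest ratio among them, 0.29 (0.13 to 0.45). The lists were read in the same cells and libraries as the receptor genes, so they are no separate comparison.

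The authors' deposited table of cluster markers for both libraries lists 27 of the 39 members, in 170 pairs of a gene and a cluster over 41 clusters. Of these pairs, 114 have a lower level in the named cluster than in other cells and 56 a higher one, by the authors' deposited table. Gabra2 is listed there for 7 clusters, and in cluster i2 it was found in 56.6% of cells and had a lower level than in other cells, by the authors' deposited table. Which cells form i2 was not used here, and no rebuilt cluster was matched to it.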

How the data were processed

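RNA was measured in single cells of 2 libraries, SD+RS and SD, grouped by the treatment label. Per the file headers, Cell Ranger 3.0.2 wrote the deposited matrices, whose values are UMI counts of each gene in each barcode. Per the submitters' processing notes, mm10 was the genome, and Seurat 4.0.4 is listed. The authors' deposited table of cluster markers gives the share of cells with a gene as a fraction, p-values over cells, and an average log difference taken here as a natural log, whose base the file headers do not state, so only its sign was used. The libraries held 123500649 UMIs in SD+RS and 132191585 in SD, and all barcodes had been called as cells.

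A cell was kept if it had 500 genes or more and a mitochondrial share of UMIs below 20%. Doublets simulated from each library's own cells marked 297 SD+RS cells (3.85%) and 580 SD cells (5.87%) as doublets, which were removed. Both libraries were clustered together with scanpy 1.11.5 and leidenalg 0.10.2 (2000 variable genes, 40 principal components, 20 neighbours, resolution 1). The receptor genes, genes of activity, stress and the clock, and mitochondrial, ribosomal, haemoglobin and sex-linked genes took no part in the clustering. Classes were named from listed markers, and neurons were clustered again at resolution 1.5. A neuron cluster was GABA where Slc32a1 was found in at least 50% of its cells at over 2 times the share with a glutamate marker, and the reverse for glutamate. Authors' cell annotations were not used, so cluster names were rebuilt. A shallow cluster with neuron markers (63 SD+RS cells, 533 SD cells) and 3 mixed neuron clusters (41 SD+RS cells, 160 SD cells) were left out of neurons. Oligodendrocytes include a small cluster led by Gpr17 and Enpp6.

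UMIs were summed over the cells of a class and scaled to 1000000 UMIs of those cells (CPM); these are not scaled to gene length, so levels of different genes were not ranked. Poisson intervals of levels and conditional binomial intervals of ratios are exact, at 95%, and cover counting error only. With 1 library per group no test and no p-value was possible. A member was counted as different when 25% or more higher, or 20% or more lower, in SD+RS, with at least 50 UMIs in each library, and the same share over all genes is given beside it. The ratio was checked on simulated counts with counting error only and 200 genes changed 1.5-fold, where 95.35% of intervals held the true ratio. Such counts have no spread between cells, mice or libraries, so only the calculation was checked. Named genes are the 39 members, members above neurons in a class, the cluster highest for each (for Gabra5 not reported here), the 5 closest and 3 most opposed pairs, and genes of the 4 lists; clusters and values singled out beyond these were chosen after they were seen. Members, lists and rules were chosen with earlier results of these data known. The alternatives were doublets kept, stricter cell filters, 2 other scalings, a mean over cells, other minimums and folds, Xist or Y-linked cells (Ddx3y, Eif2s3y, Kdm5d, Uty) alone, clusters weighted equally, 1 cluster left out, another resolution, types by cell, shallow clusters included, and, added after seeing the data, shared barcodes left out and a minimum in each neuron type.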

Additional observations from a re-analysis of the deposited data

Results flagged for a closer look

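The log2 ratios of 4 members between the libraries had opposite signs in neurons of the 2 sexes, with both intervals clear of 0. Gabrg1 had a ratio of 0.24 in Xist cells, those with Xist but no Y-linked UMIs, and of −0.28 in Y-linked cells, the reverse, a difference of 0.52. Glra1 had ratios of 0.29 in Xist cells and −0.47 in Y-linked cells, a difference of 0.76, from 111 to 475 UMIs in each set of cells. Glra2, an X-linked gene, had 0.15 in Xist cells and −0.32 in Y-linked cells, a difference of 0.47. Gabrq, also X-linked, went the other way, with −0.18 in Xist cells and 0.16 in Y-linked cells, a difference of −0.35. With 1 library per group these differences between the sexes were not tested.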

How the results depend on the processing

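Of the 16 alternatives, 13 can move a ratio. Over these, 1308 of 1469 member ratios stayed within the counting error of the reported value and 161 moved by more. The sign differed in 130, in 58 of them beyond the counting error. Members past the fold threshold changed sign in 2 cases: in Y-linked cells alone, the log2 ratio in neurons was −0.42 for Gabrd and 0.20 for Grin2c. The count of members past the fold threshold in neurons, 3 as reported, was 1 in Xist cells alone, 6 in Y-linked cells alone and 0 at 1.5-fold. In GABA neurons the count of 1 became 3 with a minimum of 10 UMIs and 3 with no minimum beyond 1 UMI, 0 at 1.5-fold, 2 in Xist cells and 3 in Y-linked cells. In glutamate neurons the count of 4 became 1 at 1.5-fold and 7 in Y-linked cells. The share of all genes was not taken beside these counts between the libraries, and the subsets by sex hold fewer cells. The count past 2-fold between GABA and glutamate neurons, 4 as reported, was 3 with 50 UMIs required in each type, 2 in Xist cells, 2 in Y-linked cells and 2 with clusters weighted equally. The median member ratio in neurons, −0.06, was −0.13 with the shallow neuron-marker clusters included. The cause of these shifts was not tested. No paired analysis was possible because each group is a single library. Gabrd and Grin2c have few UMIs in neurons, and their log2 ratios of 0.46 and −0.38, past the fold threshold, had intervals that held 0. Grm2 and Grm3 are also low in neurons, so small differences under the fold threshold in them were not detectable at this depth.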
